A study of Sus scrofa with 9 samples.

Results

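The genes followed in skeletal muscle of Bama minipigs were 6 of amino acid metabolism, namely OAT, PDXK, GOT1, GOT2, GLUL and BCAT2. They were chosen by symbol, with the diet difference of these same arrays known, through the RefSeq accession that each array probe carries. This gave 14 of 43603 probes and 5 of the 6 genes: 4 probes each for GOT1 and GLUL, and 2 each for OAT, PDXK and GOT2. For BCAT2, which opens the breakdown of branched-chain amino acids in muscle mitochondria, 0 probes carried an accession that matched, so it was not analysed here. Since the diet difference chose the genes, their values are given as a description, and nothing is read from whether a probe passed the fit over all probes.

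Longissimus dorsi RNA of 9 pigs was measured on single-colour Agilent porcine arrays, 1 array per animal. The 6 animals of the high-fat high-sucrose group (HFHSD) received 53% basal feed, 37% sucrose and 10% lard for 23 months from 6 months of age, and the 3 control animals (CD) received standard chow over the same time. Per the labels, all animals were Bama minipigs of both sexes, not assigned to single arrays, gonadally intact, housed singly, fed on a restricted schedule and fasted overnight before dissection. The growth protocol gives 6 CD animals and the series design 3, and 3 CD arrays were analysed.

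Amino acid enzymes of muscle move amino groups between carbon skeletons. PDXK phosphorylates vitamin B6 to pyridoxal phosphate, the cofactor of aminotransferases. Several aminotransferases are among the genes followed: OAT passes the amino group of ornithine on and feeds the route to glutamate and proline, GOT1 and GOT2 interconvert aspartate and glutamate in the cytosol and in mitochondria and together serve the malate-aspartate shuttle, and BCAT2 acts on branched-chain amino acids. GLUL makes glutamine from glutamate and ammonia, and muscle is a major source of glutamine for the body.

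Levels are log2 signals relative to the 75th percentile of the same array, so 0 is that percentile. Probes differ in how brightly they bind, so no level is set against that of another probe. Arrays lay on 3 slides: HFHSD 5 and HFHSD 6 shared slide 1, which was scanned on another day and had no CD array. CD 1 shared slide 2 with HFHSD 1, HFHSD 3 and HFHSD 4, and HFHSD 2 shared slide 3 with CD 2 and CD 3. The share of spots well above background was 36.7% on CD 1 and ran from 51.1% to 68.8% on the other 8 arrays. All 14 probes were well above background on all 9 arrays, so the filter on dim probes did not select among them. Defining markers of skeletal muscle, ACTA1 and CKM, were well above background on all arrays, as were all 11 tested muscle fibre markers.

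Both OAT probes were higher in mean and both PDXK probes lower in HFHSD, all 4 GOT1 probes were lower with a wide spread among the HFHSD animals, and GOT2 and GLUL differed by little against their spread. Over the 14 probes the median difference was -0.34 (log2, HFHSD minus CD), against -0.024 over all 27922 tested probes, with 6 probes higher and 8 lower. GOT1 and GLUL enter this median with 4 probes each, so it is no summary by gene. In the limma fit over all probes 1 OAT probe passed as higher and 1 PDXK probe as lower at an adjusted p under 0.05. Both calls were lost with slide as a fixed block, with normexp and 75th percentile scaling, with no filter, and without CD 1, CD 2, CD 3, HFHSD 2, HFHSD 3 or HFHSD 6, and 1 was lost without HFHSD 4 or HFHSD 5. With slide in the fit 84 of all tested probes passed, against 344. Over all tested probes 1.23% passed in either direction, 0.695% as higher and 0.537% as lower. Arrays of the diets were fully separated for 3 of the 14 probes, 2 as higher and 1 as lower. Over all tested probes 10.9% were so, 4.8% with no overlap as higher and 6.11% as lower. Since this contrast chose the genes, nothing is read from these shares.

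**Figure D1:**
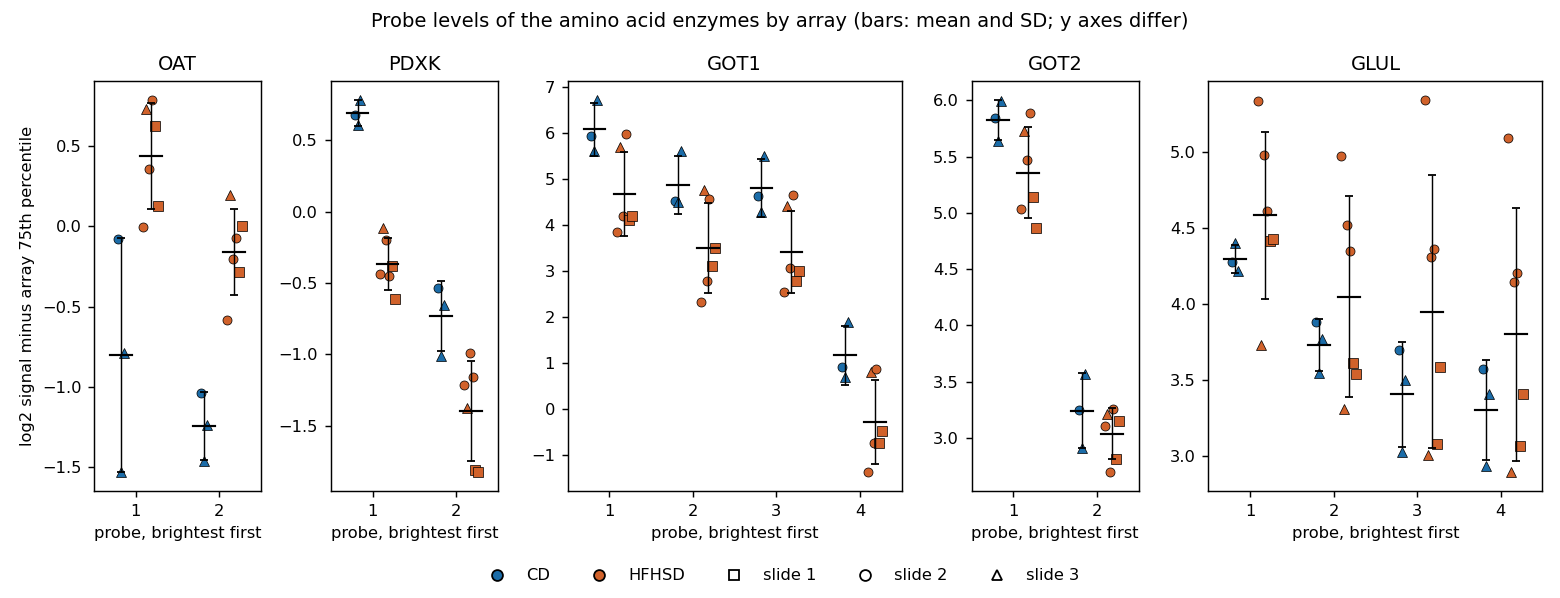
Level of every probe on every array, as log2 signal minus the array's 75th percentile on the y axis and probes from brightest to dimmest on the x axis; points are arrays, shapes are slides, and bars are the group mean and SD. The 6 HFHSD arrays lie above the 3 CD arrays for both OAT probes and below them for the brighter PDXK probe, while the HFHSD arrays of GOT1 and GLUL spread over 1.61 to 2.44 log2 units.

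PDXK, the kinase that makes pyridoxal phosphate, had the lowest spread within diets of the 14 probes by its brighter probe. That probe read 0.68, 0.61 and 0.79 on CD 1, CD 2 and CD 3, and on the HFHSD arrays it ran from -0.61 over a median of -0.41 to -0.11. Every HFHSD array thus lay below every CD array. The difference was -1.06 (SE 0.17), from 0.69 ± 0.090 (SD, n = 3) to -0.36 ± 0.18 (SD, n = 6), which is 2.08-fold lower. The pooled SD within diets was 0.16 log2, lower than for all but 3.46% of tested probes. The dimmer PDXK probe read -0.54, -1.01 and -0.66 on the CD arrays and from -1.83 over -1.29 to -0.99 on the HFHSD arrays. HFHSD 3 alone reached into the CD range, just above CD 2, and the difference was -0.66 (SE 0.24), or 1.58-fold lower.

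Within slide 2 the brighter PDXK probe differed by -1.04 and within slide 3 by -0.81, and the dimmer probe by -0.59 and -0.55. Each of these rests on a slide with only 1 CD array or 1 HFHSD array. With normexp background correction and the same scaling the brighter probe gave -0.66, and with normexp and quantile normalisation -0.61. PDXK thus stayed lower in HFHSD in each of these settings, at a smaller size.

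OAT, the mitochondrial ornithine aminotransferase, was higher in HFHSD by both probes. Its brighter probe read -0.078, -1.53 and -0.79 on CD 1, CD 2 and CD 3 and ran from -0.0063 over 0.49 to 0.79 on the HFHSD arrays. The groups did not overlap, but CD 1 lay just under HFHSD 1. The difference was 1.24 (SE 0.32), from -0.80 ± 0.73 (SD, n = 3) to 0.44 ± 0.33 (SD, n = 6), or 2.36-fold. The dimmer probe, the one that passed in the fit, read -1.03, -1.46 and -1.24 on the CD arrays and ran from -0.58 over -0.14 to 0.20 on the HFHSD arrays. Here the gap between the groups was wider than on the brighter probe, and the difference was 1.09 (SE 0.21), or 2.12-fold.

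CD 1, the dimmest array, was the highest CD array for both OAT probes. Without it the brighter probe differed by 1.60, and without CD 2 by 0.87. Within slide 2 the probes differed by 0.46 and 0.75 and within slide 3 by 1.89 and 1.55. Direction was thus the same on both slides, with unequal size. With normexp and 75th percentile scaling the probes gave 0.88 and 0.58.

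GOT1, the cytosolic aspartate aminotransferase, had the largest difference of the followed genes and also the largest spread. The brightest probe read 5.93, 5.60 and 6.72 on CD 1, CD 2 and CD 3, and ran from 3.85 over 4.20 to 5.99 on the HFHSD arrays. HFHSD 1, HFHSD 3, HFHSD 5 and HFHSD 6 lay below every CD array, while HFHSD 2 at 5.70 and HFHSD 4 at 5.99 lay within the CD range. The difference was -1.41 (SE 0.52), from 6.09 ± 0.58 (SD, n = 3) to 4.67 ± 0.92 (SD, n = 6). The HFHSD animals alone spanned 2.14 log2 units, more than the difference between the diets.

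All 4 GOT1 probes gave this picture. Their differences lay between -1.44 and -1.36, and after subtraction of each diet's mean the 6 pairs of probes correlated at r = 0.94 to 0.996 over the 9 arrays. These probes read 1 transcript in the same 9 extracts, so they are no replicates of the diets. None of the 4 probes passed in the fit. GOT1 was -1.25 within slide 2 and -0.47 within slide 3, and -0.88 with slide as a fixed block.

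GOT2, the mitochondrial partner of GOT1, read 5.84, 5.64 and 6.00 on the CD arrays by its brighter probe and ran from 4.87 over 5.31 to 5.89 on the HFHSD arrays, which overlapped. The difference was -0.47 (SE 0.26) and that of the dimmer probe -0.21 (SE 0.21). With normexp and 75th percentile scaling the brighter probe was at -0.037 and the dimmer probe turned to 0.16. That setting moved the median of all probes by -0.15, from -0.024 to -0.17, but the probes did not all move alike. The brightest GLUL probe rose from 0.29 to 0.71, and the median of the 11 muscle fibre markers from -0.17 to 0.38. Both OAT probes fell, from 1.24 to 0.88 and from 1.09 to 0.58. The cause of the GOT2 change in that setting was not tested. For both GOT2 probes the difference was under 2 times its SE, and the dimmer one changed sign in that setting but was -0.14 with normexp and quantile normalisation.

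GLUL, the glutamine synthetase, had means that were higher in HFHSD by all 4 probes, by 0.29 (SE 0.31) for the brightest up to 0.54 (SE 0.49). The brightest probe read 4.27, 4.40 and 4.22 on CD 1, CD 2 and CD 3 and ran from 3.73 over 4.52 to 5.34 on the HFHSD arrays. HFHSD 1, at 5.34, HFHSD 3, at 4.98, and HFHSD 4, at 4.61, were the highest arrays, and HFHSD 2 was the lowest of all 9. The sign differed between slides, with 0.70 within slide 2 and -0.58 within slide 3. Without HFHSD 1 the difference was 0.14.

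**Figure D2:**
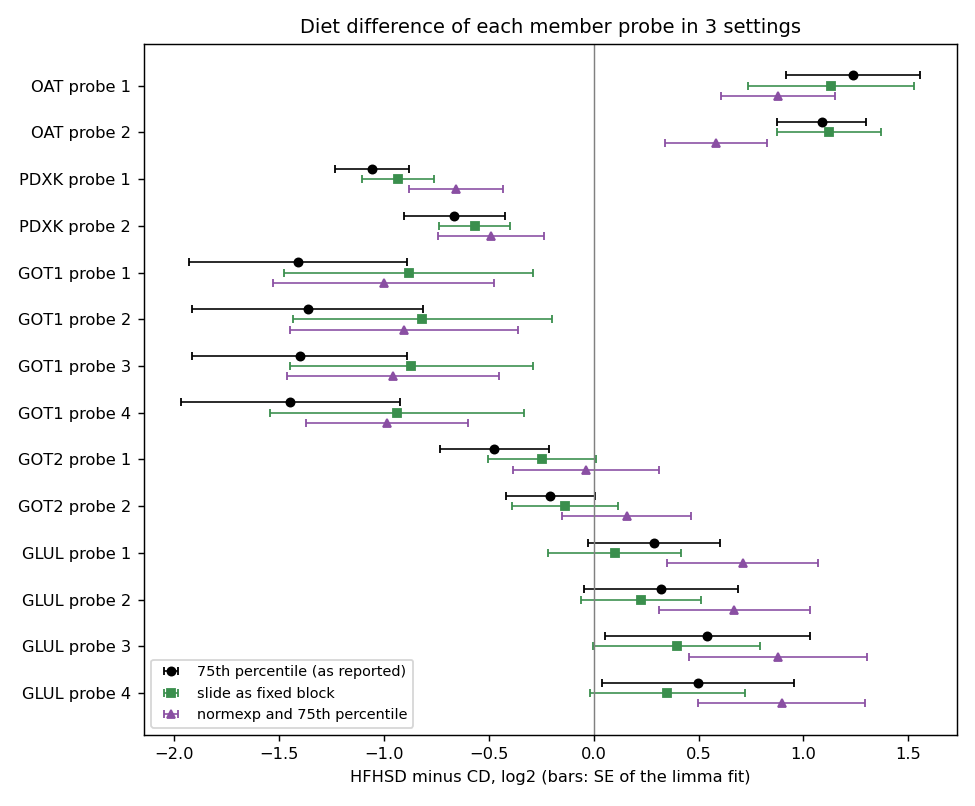
Difference between the diets for each of the 14 probes on the x axis (log2, HFHSD minus CD) with the SE of the limma fit, in the reported setting, with slide as a fixed block and with normexp and 75th percentile scaling. OAT lies above 0 and PDXK and GOT1 below 0 in all 3, while the dimmer GOT2 probe changes side at 0.16 with normexp and 75th percentile scaling.

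Markers of muscle and other cell types were set beside these values, and no correlation of the marker lists with the followed genes was computed. In whole muscle, fewer cells of a type and less RNA per cell cannot be told apart. By the brightest probe all 10 tested of 10 adipocyte markers were higher in HFHSD, 9 of them with normexp and 75th percentile scaling. Only 7 of the 10 were well above background on all arrays, and these 7 were higher. Of the 10 markers 1, CIDEA, passed (limma adjusted p = 0.0378, difference 1.49), against 0.995% of all tested named genes. The 2 TUSC5 probes disagreed in size, with the brighter at 0.33 and the other passing at 3.26. Their summed signal, relative to each array's 75th percentile, was 92.8 to 121 in CD and 119 to 376 in HFHSD. It was highest on HFHSD 1 at 376, HFHSD 4 at 286 and HFHSD 3 at 195. LIPE, a lipase that muscle also expresses, made up 80.6% of the sum on HFHSD 4. On that array 8 of the 10 markers, ADIPOQ and PLIN1 among them, had their lowest HFHSD value. Without LIPE the sums were 46.4 to 72.4 in CD and 55.5 to 135 in HFHSD, which overlapped, with HFHSD 4 the lowest of its group. Those sums add linear signals, and FABP4 was the brightest marker left, at 6.92 on HFHSD 1 and 6.03 on CD 2. Its brightest probe differed by 0.32, the least of its 7 probes, which reached 1.77. By single markers the groups did not overlap for 4 of 10, against 13.1% of all tested named genes. PLIN1, a defining lipid droplet coat of adipocytes, passed the scanner's background call on 0 of 3 CD and 5 of 6 HFHSD arrays. It thus passed the filter on dim probes only through the HFHSD arrays, where it was higher. ADIPOQ passed the background call on all arrays. The part of adipocyte RNA in the values of GLUL and OAT was not tested.

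All 7 tested of 11 macrophage and leukocyte markers were lower in HFHSD, but 3 of 7 with normexp and 75th percentile scaling, with 0 passing in limma and 0 at an unadjusted p under 0.05. Their summed signal was 17.9 to 30.7 in CD and 10.4 to 29.7 in HFHSD. All 3 tested smooth muscle markers of 5 were lower, 2 of 3 with slide in the fit, with sums of 782 to 1214 in CD and 525 to 794 in HFHSD and 0 passing. ACTA2, a defining smooth muscle actin, differed by -0.55 (limma adjusted p = 0.285), CNN1 by -0.69 and MYLK by -0.071. The sum adds linear signals and was nearly all ACTA2, whose CD mean was 9.90 beside 4.15 for CNN1 and -2.02 for MYLK. Of 11 tested muscle fibre markers 9 were lower and 2 higher in mean, with 0 passing in limma and 2 at an unadjusted p under 0.05, but 2 were lower and 9 higher with normexp and 75th percentile scaling. Those without overlap were TNNT3, a fast troponin, at -1.04 (limma adjusted p = 0.108), and MYH2, a fast myosin heavy chain, at -0.996 (adjusted p = 0.158). Over all tested named genes 13.1% were without overlap. The other fast myosins and troponins of the list did not follow these 2. MYH4 differed by 0.61, with all 8 probes higher, MYH1 by 0.014, TNNI2 by -0.011 and TNNC2 by -0.080. The sum over the muscle fibre markers was 11461 to 15079 in CD and 9323 to 12730 in HFHSD. The 5 tested endothelial markers of 8 had a median of 0.00086, with PECAM1, an adhesion molecule of endothelial cells, at -0.18, and the 5 tested fibroblast markers of 8 a median of 0.043. Of the 4 blood genes only ALB was tested, at 1.73 (adjusted p = 0.291). CD68 and COL1A1 had no named probe.

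**Figure D3:**
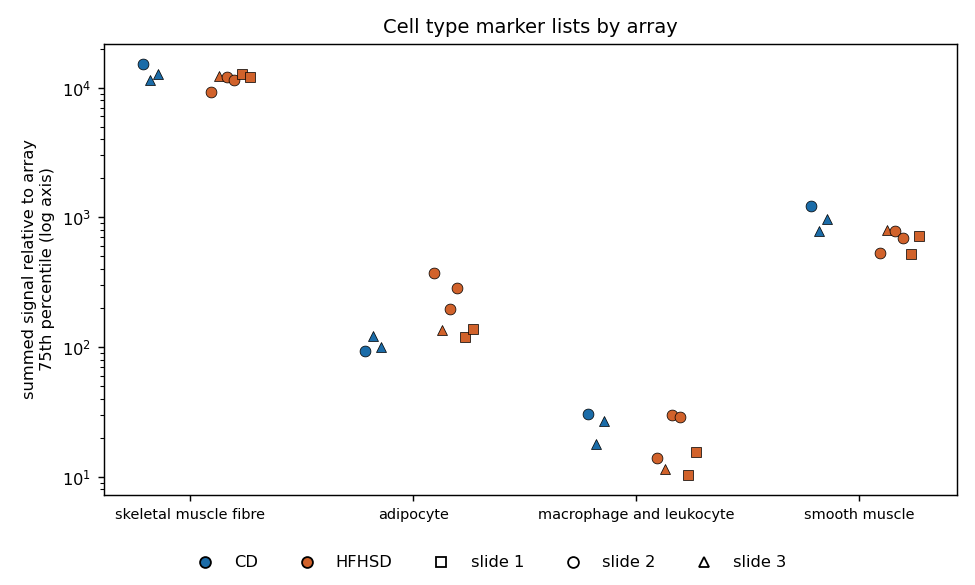
Summed signal of 4 marker lists on each array, relative to that array's 75th percentile, on a log axis; points are arrays, colours the diets and shapes the slides. The adipocyte sums of HFHSD, 119 to 376, lie above the CD sums of 92.8 to 121 on 5 of 6 arrays, and the muscle fibre sums overlap.

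Other genes of amino acid metabolism, outside the 6 chosen, were described from 8 lists of 126 genes in all. Of these 35 had a named probe and 32 were tested, by the brightest probe of each. In limma 0 of 32 passed over all probes, against 0.995% of all 2613 tested named genes, and 8 of 32 had an unadjusted p under 0.05, against 481 of 2613. With a variance trend and a robust prior 1 of 32 passed. The groups did not overlap for 4 of 32, against 13.1% of named genes. By direction 17 were higher and 15 lower, with a median of 0.027 beside -0.085 over the named genes.

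Nearest to OAT stands the list of ornithine, proline, polyamines and the urea cycle, of which 9 of 23 genes were tested, 8 of them higher and 1 lower (5 and 4 with normexp and 75th percentile scaling), with a median difference of 0.20. This was -0.029 without CD 2. None passed. SLC25A15, which carries ornithine into the mitochondria where OAT acts, was the 1 that was lower. It read 0.27, 0.34 and 0.73 on CD 1, CD 2 and CD 3 and ran from -1.95 over -1.51 to -0.33 on the HFHSD arrays. Every HFHSD array was below every CD array by this single probe. The difference was -1.76 (SE 0.37, limma adjusted p = 0.0534), -1.39 within slide 2 and -1.26 within slide 3, and -1.33 (adjusted p = 0.118) when slide entered the fit as a fixed term. Over its 19 alternatives the adjusted p ran from 0.0236 to 0.238 and passed in 5.

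OAZ2, an antizyme that inhibits ornithine decarboxylase, read -0.81, -1.09 and -1.07 on the CD arrays and ran from -0.54 over -0.43 to -0.079 on the HFHSD arrays, without overlap. Its difference was 0.64 (SE 0.19, limma adjusted p = 0.116). SAT1, which acetylates polyamines for their breakdown and export, read 2.20, 2.23 and 1.86 on the CD arrays and ran from 2.17 over 3.14 to 4.14 on the HFHSD arrays. Only HFHSD 6 lay within the CD range, and the difference was 1.04 (SE 0.37, adjusted p = 0.196). All 6 SAT1 probes were higher, from 0.74 to 1.04, and none passed. ODC1, ornithine decarboxylase, the pyridoxal phosphate enzyme that draws ornithine into polyamines, differed by 0.20 (SE 0.31, adjusted p = 0.819) with overlapping groups.

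**Figure D4:**
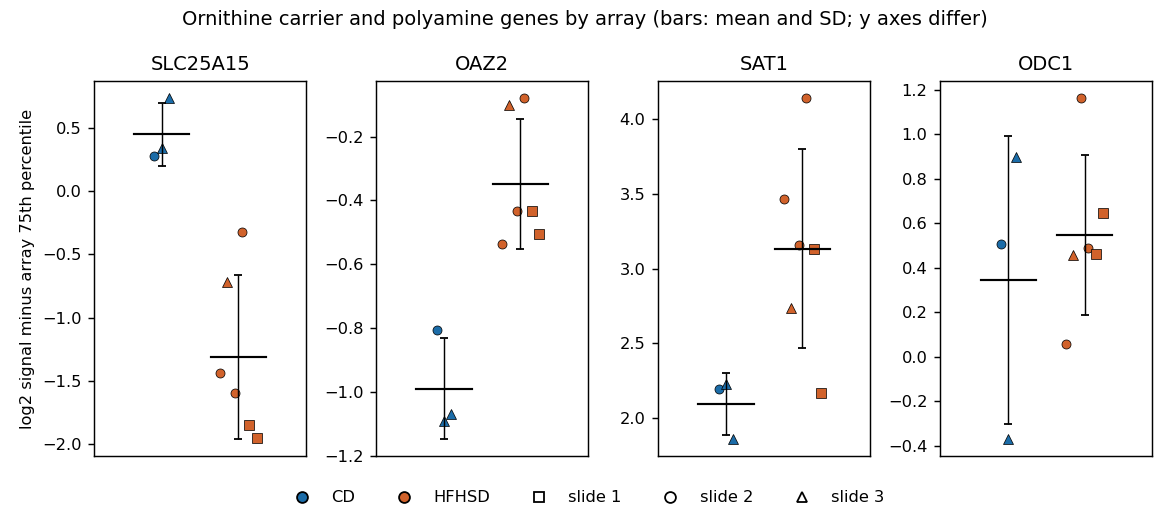
Levels of SLC25A15, OAZ2, SAT1 and ODC1 on each array (y axis, log2 signal minus the array's 75th percentile, with a separate axis for each gene); points are arrays, shapes slides, and bars the group mean and SD. The HFHSD arrays lie below the CD arrays for SLC25A15 and above them for OAZ2, overlap by HFHSD 6 alone for SAT1, and overlap widely for ODC1.

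Beside GOT1 and GOT2, both tested genes of the malate-aspartate shuttle were lower in mean, and neither passed. MDH1, the cytosolic malate dehydrogenase, read 5.89, 5.52 and 6.24 on the CD arrays and ran from 4.03 over 4.91 to 5.81 on the HFHSD arrays, with HFHSD 2 and HFHSD 4 within the CD range, as for GOT1. The difference was -0.92 (SE 0.41, limma adjusted p = 0.304). MDH2, the mitochondrial form, differed by -0.61 (SE 0.22, adjusted p = 0.208), without overlap of the groups. Within slide 2 MDH1 and MDH2 differed by -0.94 and -0.78 and within slide 3 by -0.068 and -0.29. With normexp and 75th percentile scaling MDH1 was at -0.46 and MDH2 at -0.15. The median of these 2 genes was then -0.31, against -0.77 in the reported setting. The other 3 of 5 shuttle genes, the carriers SLC25A11, SLC25A12 and SLC25A13, had no named probe.

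Around GLUL, 3 of 14 genes of glutamate, glutamine and alanine metabolism were tested and none passed. GLUD1, glutamate dehydrogenase, differed by 0.13 (SE 0.16, limma adjusted p = 0.754), and its 10 probes lay between -0.25 and 0.25. GFPT1, which uses glutamine to make hexosamines, differed by 0.61 (adjusted p = 0.271), was bright enough to be called on 2 of 3 CD arrays, and turned to -0.26 with normexp and 75th percentile scaling. ABAT, GABA aminotransferase, differed by -0.87 (adjusted p = 0.642) and was 0.18 with slide in the fit. Its probe rose above background on 2 of 3 CD arrays and 5 of 6 HFHSD arrays.

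Of branched-chain amino acid breakdown, the pathway that BCAT2 opens, 8 of 25 genes were tested, 3 higher and 5 lower, and none passed or had an unadjusted p under 0.05. The median difference, -0.059, became 0.29 with normexp and 75th percentile scaling. Of the branched-chain ketoacid dehydrogenase BCKDHA, BCKDHB and DLD were tested. They differed by -0.093 (SE 0.23), -0.025 (SE 0.21) and -0.24 (SE 0.25), each less than its error. IVD, which breaks down the leucine chain, differed by 0.32 (adjusted p = 0.612), ACAD8, of the valine chain, by 0.28 (adjusted p = 0.627), and ECHS1, an enoyl-CoA hydratase, by -0.21 (adjusted p = 0.677), the last turning to 0.36 with normexp and 75th percentile scaling.

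Of 35 other enzymes that use pyridoxal phosphate 6 were tested, 2 higher and 4 lower, and none passed. Their median was -0.36, but it was 0.21 without CD 1 and 0.011 with slide in the fit. CTH, which makes cysteine from cystathionine, differed by -0.69 (limma adjusted p = 0.569). AGXT2, a mitochondrial aminotransferase, differed by -1.40 (limma adjusted p = 0.663), and by 0.65 without CD 1. The first value was made by CD 1 at 1.14 against -6.31 and -3.69 on the other CD arrays. Its probe was well above background on only 2 of 3 CD and 3 of 6 HFHSD arrays. Of 21 genes of serine, glycine, one-carbon and sulphur metabolism 6 were tested, 2 higher and 4 lower, with a median of -0.45 and none passing. AMT, of the glycine cleavage system, differed by 1.33 (SE 0.37, adjusted p = 0.108), with only HFHSD 1 inside the CD range. AHCY, which splits S-adenosylhomocysteine, differed by -0.45 (adjusted p = 0.388), and every HFHSD array lay below the CD arrays, which read 5.65, 5.60 and 5.61; with normexp and 75th percentile scaling it was -0.00096. PHGDH, the first step of serine synthesis, differed by -1.39 (adjusted p = 0.228) with a probe that was above background on only 1 of 3 CD and 2 of 6 HFHSD arrays. KMO, of tryptophan breakdown, the 1 tested gene of 16 in its list, differed by 0.97 (limma adjusted p = 0.149). Its probe was well above background on 1 of 3 CD and 6 of 6 HFHSD arrays. It thus passed the filter on dim probes only through the HFHSD arrays, where it was higher. With normexp and 75th percentile scaling KMO turned to -0.20.

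**Figure D5:**
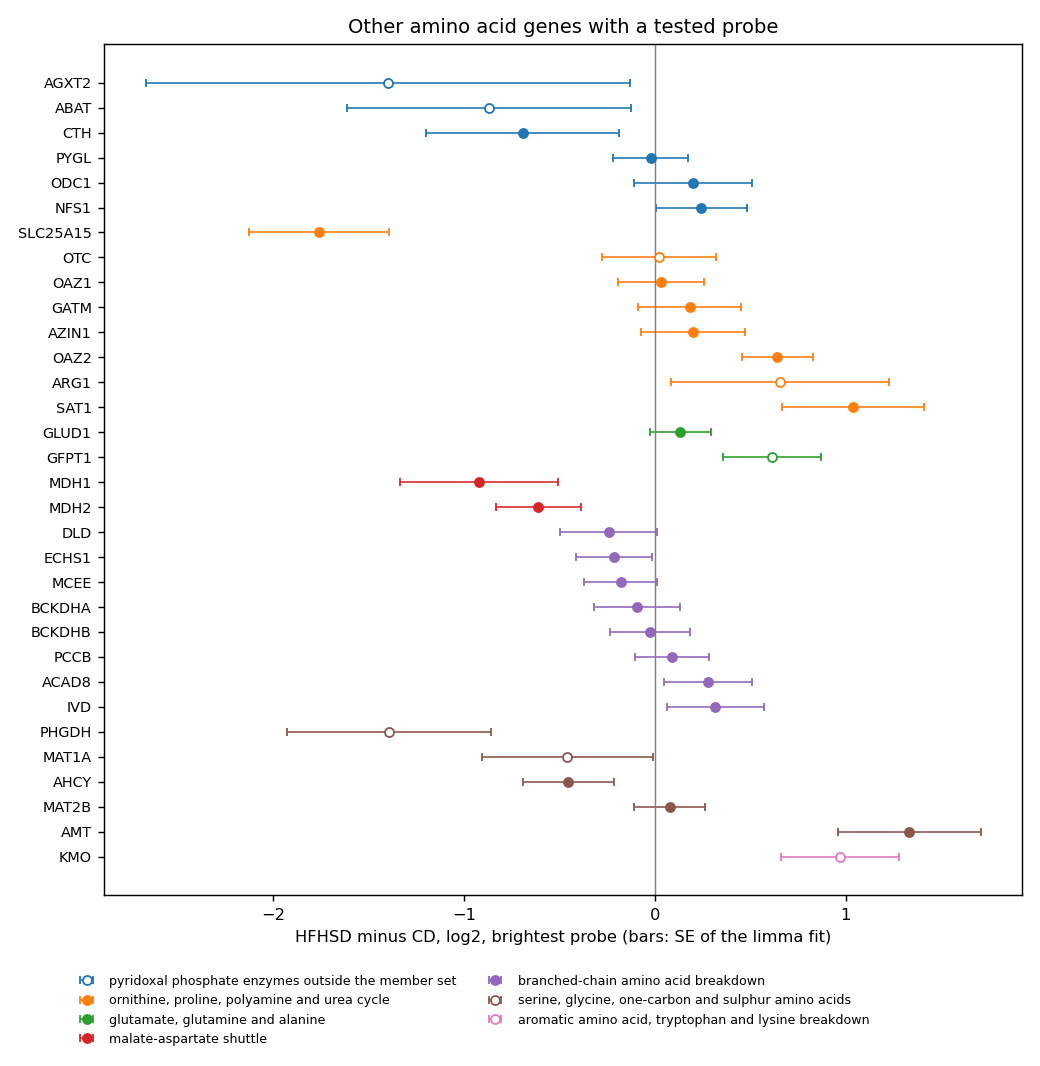
Difference between the diets (x axis, log2, HFHSD minus CD) with the SE of the limma fit for the 32 tested amino acid genes outside the chosen 6, coloured by the first list that holds them; open points were not well above background on every array. SLC25A15 lies farthest below 0 at -1.76 and AMT farthest above at 1.33, and the branched-chain genes lie between -0.24 and 0.32.

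Apart from the diets, the animals varied in OAT and PDXK, and this variation was set against that of 2608 other named genes after each diet's mean was subtracted, over the 9 arrays. The genes most like OAT, by its brighter probe, were ACADM, the medium-chain acyl-CoA dehydrogenase of fatty acid oxidation (r = 0.94, rho = 0.97), UBE2D1, a ubiquitin-conjugating enzyme (r = 0.92, rho = 0.92), and CYP2C33, a cytochrome P450 of a large family (r = 0.91, rho = 0.92). Without CD 1 and CD 2, the arrays farthest from the median of OAT, r was 0.91, 0.78 and 0.86. For PDXK, by its brighter probe, they were USB1, a processing enzyme of U6 RNA (r = 0.90, rho = 0.88), LYZ, the lysozyme of leukocytes (r = 0.86, rho = 0.75), and COPS4, a subunit of the COP9 signalosome (r = 0.84, rho = 0.80). Without HFHSD 2 and HFHSD 6 these fell to 0.67, 0.53 and 0.67, so they rest in part on those arrays. These are the highest of many correlations between arrays that share slides, and they are given without a p. The 2 probes of a gene correlated at r = 0.66 for OAT, 0.49 for PDXK and 0.35 for GOT2 in the same values, so that part of the variation seen by 1 probe was not seen by the other.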

How the data were processed

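Agilent Feature Extraction 10.7.3.1 gave the deposited intensity values, per the file headers: a linear processed signal with local background removed and spatial trend corrected on each array, unscaled between arrays. The authors' series table holds the same intensity values, with 0 spots differing on any array, so its scale is linear and uncentred. Its other processing is not given in the sources used here.

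Control and outlier spots were left out, spots of a probe were averaged as log2, and each array's 75th percentile was subtracted; 22 of 43603 probes with no usable spot on some array were dropped. Probes well above background on at least 3 arrays were tested, 27922 in all. Accessions, without versions, were matched to the RefSeq table of Sscrofa11.1 for names only, which named 6891 probes of 3196 genes; 36712 stayed unnamed. A gene outside the chosen 6 is represented by its brightest tested probe.

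HFHSD was compared with CD by limma 3.58.1 in R 4.3.3, two-sided and without covariates, with Benjamini-Hochberg adjustment over all tested probes and a threshold of 0.05. The fit was tested on simulated data. The members and lists were chosen with earlier results of these data known. Named were all member probes, up to 3 genes of each list with the smallest p, all that passed, the 3 genes most like OAT and PDXK, and the defining markers. The number of arrays limits the precision. Alternatives covered scaling, normexp (offset 50), the filter, slide, the variance model, the probes of a gene and each array left out.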

Additional observations from a re-analysis of the deposited data

Results flagged for a closer look

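Among 31 sets of 6 HFHSD arrays examined for a single array far from the others, 14 for the followed probes and the rest for the named list genes, 1 stood out. KMO on HFHSD 5 was at -3.82, with the nearest HFHSD array at -3.20. Chance gives about 1 in 20 such groups. No set of the followed OAT, PDXK, GOT1, GOT2 or GLUL probes stood out in this way.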

How the results depend on the processing

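OAT stayed higher and PDXK and GOT1 lower, by the brightest probe, in all 20 alternatives, as did GLUL's higher and GOT2's lower mean. PDXK was -0.66 with normexp and 75th percentile scaling, -0.61 with normexp and quantile normalisation and -0.86 by the mean of its probes, and GOT2 was -0.037 in the first of these. Of the 2 member probes that passed, the OAT probe passed in 8 and the PDXK probe in 10 of 19 alternatives; 0 passed with no filter, with normexp and 75th percentile scaling and with slide as a fixed block, and 0 to 2 with single arrays left out. The 344 passing probes became 66 with no filter, 88 with normexp and 75th percentile scaling, 856 with normexp and quantile normalisation, 84 with slide as a fixed block, 677 with it as a random block, 612 with a variance trend and 736 on probes well above background on all arrays. They became 25 to 325 with single arrays left out, 25 without CD 3 and 32 without CD 1. Of the list genes 1, SLC25A15, passed with normexp and quantile normalisation, with slide as a random block, with the variance trend and on probes well above background on all arrays, and 0 to 1 with single arrays left out (SLC25A15 without HFHSD 4, PHGDH without CD 2). Of the named list genes, none of which passed, GFPT1 turned to -0.26, ECHS1 to 0.36 and KMO to -0.20 with normexp and 75th percentile scaling, ABAT to 0.18 with slide as a fixed block, and AGXT2 to 0.65 without CD 1 (-3.08, without CD 2, to 0.65 with single arrays left out). The cause of these changes was not tested. The median shift with no filter was -0.18. Normexp was run on the spots' median signals, and the percentile over probes detected on all arrays was added after seeing the data. The diets were given to different animals, so the design held no pairs to analyse.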
